A study of Mus musculus with 8 samples.

Results

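The genes described here are 10 of the 46517 genes counted in whole liver, and they are genes of hepatocytes around the central vein that depend on Wnt signaling, together with a pseudogene of the first of them. The genes were Glul, Glns-ps1, Oat, Slc1a2, Rhbg, Lgr5, Axin2, Tbx3, Cyp1a2 and Rgn. They were picked by name with the difference between the genotypes in these livers already known, so their differences between genotypes are given as a description. How many of them passed each threshold is printed only beside the share of all tested genes. All 10 genes passed the filter on low counts.

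In the liver lobule, endothelial cells of the central vein release Wnt ligands and R-spondin 3, and the hepatocytes nearest to the vein keep β-catenin active in response. These pericentral hepatocytes make glutamine from glutamate and ammonia and carry out much of the cytochrome P450 metabolism, whereas hepatocytes at the portal side run gluconeogenesis and the urea cycle. Glul encodes glutamine synthetase, the classical marker of the innermost layer of pericentral cells, and Glns-ps1 is annotated as a processed pseudogene of it, a copy of the spliced transcript in another place of the genome.

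RNA-Seq of livers from male C57BL/6 mice, 4 of them MøFoxO1-KO and 4 their WT littermates, was performed to learn how the loss of FoxO1 in myeloid cells changes the liver transcriptome in nonalcoholic steatohepatitis (NASH). All mice carried FoxO1 alleles flanked by loxP sites (FoxO1 loxP/loxP), and the MøFoxO1-KO mice also carried Lyz2-Cre, in which the promoter of lysozyme 2 drives Cre in myeloid cells, so hepatocytes were not the target of the deletion. Both groups were fed a NASH-inducing diet for 25 weeks from 6 weeks of age, were 31 weeks old, and were fasted for 16 hours before tissue was taken. The mice are named by the replicate numbers of the labels, 22 to 25 for WT and 26 to 29 for MøFoxO1-KO.

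Total counts per mouse ranged from 15253218 to 18025481, and mitochondrial genes held 4.16% to 6.33% of them. The targeted gene, Foxo1, was counted 422, 467, 328 and 461 times in WT mice 22 to 25 and 448, 253, 438 and 259 times in MøFoxO1-KO mice 26 to 29. Its groups overlapped, and its log2 fold change was -0.17 (SE 0.18, edgeR, Benjamini-Hochberg adjusted P = 0.686). Whole liver holds Foxo1 of all its cell types, so these counts do not check the deletion in myeloid cells. Hepatocyte markers, among them Alb with at least 739748 counts in each mouse, identified the tissue. The summed level of 7 hepatocyte markers was 32090 to 41890 RPKM, which are counts scaled to exon length and library size, in WT and 40090 to 60550 RPKM in MøFoxO1-KO livers. Of these 7, 5 had a log2 fold change above 0 (edgeR), among them Apoa1 at 1.07 and Serpina1c at 1.49. The other 2, Hnf4a and Apob, were lower at -0.32 and -0.22, so the sum does not stand for each marker. The 8 endothelial markers summed to 18.6 to 58.9 RPKM in WT and 44.4 to 66.4 RPKM in MøFoxO1-KO livers, and the 10 macrophage markers to 89.6 to 161.7 and 86.4 to 364 RPKM. Of the macrophage markers 7 were higher and 3 lower, from Timd4 at 2.08 to Trem2 at -3.88. Their list includes Lyz2 (-0.77), whose promoter drives Cre in the MøFoxO1-KO mice alone. The macrophage sums therefore cannot be compared between genotypes as a measure of macrophages. Sums of the 8 stellate cell markers were 82.1 to 148.9 and 109.1 to 174.4 RPKM, and those of the 6 cholangiocyte markers were 44.9 to 61.5 and 33.6 to 52.5 RPKM. Of these markers, Trem2 was at 0 counts in 1 mouse and Cldn4 in 2. In bulk tissue, fewer cells of a type and less RNA per cell cannot be told apart.

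Because Glns-ps1 is a near-copy of Glul, its sequence decides how far reads of both genes can be kept apart. Glns-ps1 (ENSMUSG00000082100) is a single exon on the plus strand of chromosome 11 of GRCm38, from 19720355 to 19721472, and no other gene in the annotation overlaps it. Glul (ENSMUSG00000026473) lies on the plus strand of chromosome 1 from 153899944 to 153909723. The 1118 bases of Glns-ps1 aligned to the 1122 bases of the Glul coding sequence, stop codon included, with 1090 of 1114 aligned bases identical (97.85%). The copy differed by 24 substitutions, 1 insertion of 4 bases and 1 gap of 8 bases, and its reading frame met a stop after 50 codons, whereas that of Glul has 373 codons. The start of both sequences is shown, 5′ to 3′, because it holds the insertion, the gap and 7 of the substitutions. The first lies at chr11:19720355-19720650 on the plus strand, and the second is the first 300 bases of the Glul coding sequence, both from GENCODE M21. Capitals mark the bases that differ between the genes, the 4 inserted bases in Glns-ps1 and the 8 bases of Glul that Glns-ps1 lacks.
Glns-ps1: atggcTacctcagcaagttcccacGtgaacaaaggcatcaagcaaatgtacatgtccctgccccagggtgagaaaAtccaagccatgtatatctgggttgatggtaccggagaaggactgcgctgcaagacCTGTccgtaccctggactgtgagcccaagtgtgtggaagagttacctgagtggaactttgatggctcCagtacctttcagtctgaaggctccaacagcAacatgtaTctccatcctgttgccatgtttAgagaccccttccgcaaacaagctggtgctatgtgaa
Glul: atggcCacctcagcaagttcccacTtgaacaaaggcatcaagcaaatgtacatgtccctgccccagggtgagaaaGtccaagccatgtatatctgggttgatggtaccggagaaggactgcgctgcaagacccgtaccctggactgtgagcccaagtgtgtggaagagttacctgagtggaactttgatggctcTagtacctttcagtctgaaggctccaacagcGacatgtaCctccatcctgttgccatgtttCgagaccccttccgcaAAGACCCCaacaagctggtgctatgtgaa
The longest run of identical bases was 143. Of all 50-base windows of Glns-ps1, 28.9% occurred letter for letter in 1 of the 5 Glul transcripts, against 14.4% of the 75-base, 5.59% of the 100-base and 0% of the 150-base windows. The read length and the treatment of reads that match both genes are not given in the sources used here, so a count on Glns-ps1 can hold reads of Glul and the reverse.

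**Figure D1:**
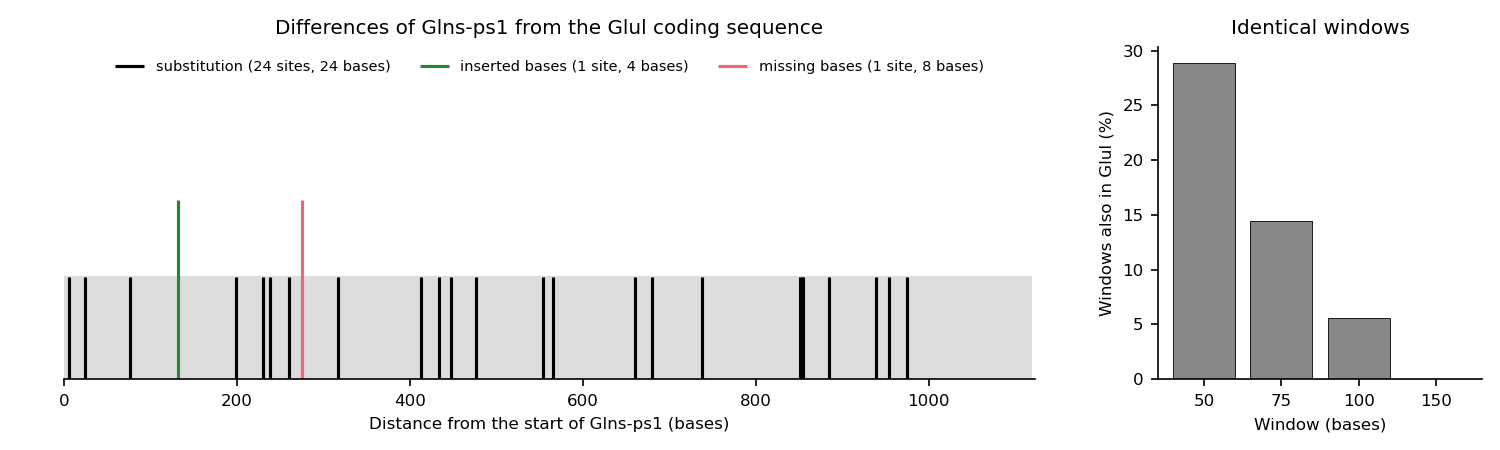
Differences of Glns-ps1 from the Glul coding sequence. Left, the x axis is the distance in bases from the start of the 1118-base pseudogene, and lines mark 24 substitutions (black), 1 insertion of 4 bases (green) and 1 gap of 8 bases (red). Right, bars give the percentage of windows of 50, 75, 100 and 150 bases of Glns-ps1 that occur without a difference in a Glul transcript, which drops from 28.9% to 0%.

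Per length of exon, the genes for metabolic enzymes had the highest levels of the 10 and the Wnt receptor gene Lgr5 was among the lowest. In WT livers, Rgn (regucalcin, a calcium-binding protein with gluconolactonase activity) had 706 ± 159 RPKM (SD, n = 4), followed by Glul with 407 ± 35.9, Oat with 405 ± 187 and Cyp1a2 with 338 ± 115 RPKM. The intervals of 1 SD around the means of Glul, Oat and Cyp1a2 overlapped, so their order in WT livers is within their spread. Slc1a2 at 13.9 ± 5.93 RPKM and Tbx3 at 6.81 ± 0.806 RPKM were apart by more than these intervals. The lowest were Axin2 at 1.79 ± 0.473, Rhbg at 1.47 ± 1.06, Lgr5 at 0.673 ± 0.217 and Glns-ps1 at 0.279 ± 0.284 RPKM, and each of these 4 overlapped its neighbor in that order. The RPKM of Rhbg used all of its 1937 exon bases, of which 1190 are shared with Gm38392 on the same strand. If reads in the shared bases were not counted, its level is understated, so its place in this order is uncertain. In MøFoxO1-KO livers, Rgn (976 ± 163 RPKM) and Cyp1a2 (516 ± 74.7 RPKM) stood above Glul (396 ± 120 RPKM) and Oat (388 ± 170 RPKM), and the intervals of 1 SD of Cyp1a2, Glul and Oat overlapped. Glns-ps1 stood at 8.21 ± 5.76 RPKM there, beside Slc1a2 at 6.83 ± 0.935 and Tbx3 at 6.46 ± 1.62 RPKM. Rhbg (1.84 ± 0.629 RPKM), Axin2 (1.34 ± 0.415 RPKM) and Lgr5 (0.683 ± 0.173 RPKM) were again the lowest, with the same limit for Rhbg.

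Glul did not separate the genotypes. Normalized counts, which are counts scaled to the mean library size after TMM scaling in edgeR, were 20558, 22851, 20722 and 24686 for Glul in WT replicates 22 to 25 and 29756, 23700, 14887 and 17970 in MøFoxO1-KO replicates 26 to 29. The MøFoxO1-KO mice held both the highest and the lowest value of all 8, and the WT mice lay between them. The fitted log2 fold change, MøFoxO1-KO over WT, was -0.04 (SE 0.21, 95% confidence interval -0.50 to 0.42). The coefficient of variation of Glul was 8.81% in WT and 30.4% in MøFoxO1-KO livers. Exons of Glul share 116 bases with Teddm2 on the other strand, which had 7 to 28 counts, and 93 bases with Mir8114, which had 0.

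Glns-ps1 had the widest difference of the 10 genes and was near the lower limit of detection in WT livers. Raw counts were 2, 13, 2 and 4 in WT mice 22 to 25, and 253, 116, 7 and 192 in MøFoxO1-KO mice 26 to 29. Thus 3 MøFoxO1-KO mice had at least 116 counts, whereas MøFoxO1-KO replicate 28 had 7. That was below the 13 counts of WT replicate 23, and the groups overlapped. Glns-ps1 passed the filter on low counts through those 3 mice and WT replicate 23, so its test depended on the group where it was high. The WT mean was 5.12 ± 5.20 normalized counts (SD, n = 4) and the MøFoxO1-KO mean 151 ± 106 (SD, n = 4), with a log2 fold change of 4.86 (SE 0.97, 95% confidence interval 2.69 to 7.03). Without MøFoxO1-KO replicate 28 the log2 fold change was 5.27, and without WT replicate 23 it was 5.82.

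The ratio of counts on Glns-ps1 to counts on Glul differed widely between mice. Per 100 counts on Glul there were 0.00911, 0.0559, 0.00891 and 0.0161 counts on Glns-ps1 in WT replicates 22 to 25 and 0.815, 0.585, 0.0446 and 1.20 in MøFoxO1-KO replicates 26 to 29. The highest ratio was in MøFoxO1-KO replicate 29, which had fewer Glul counts than any WT mouse. As a share of the counts on both genes, Glns-ps1 made up 0.0559% in WT replicate 23 (exact 95% binomial interval 0.0298% to 0.0956%) and 0.0446% in MøFoxO1-KO replicate 28 (0.0179% to 0.0919%), and these intervals overlapped. The shares of the other 3 MøFoxO1-KO mice lay between 0.581% and 1.18%, with a lowest bound of 0.480%, above the highest bound of every WT mouse. These intervals cover counting error only. In the 3 MøFoxO1-KO mice with high Glns-ps1 the hepatocyte markers summed to 49700, 60550 and 52450 RPKM and the macrophage markers to 128.1, 196.7 and 364 RPKM, against 40090 and 86.4 RPKM in replicate 28. Mitochondrial genes held 5.14%, 4.16% and 4.72% of the counts in those 3 mice and 6.33% in replicate 28. The part of these differences in the Glns-ps1 counts was not tested.

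**Figure D2:**
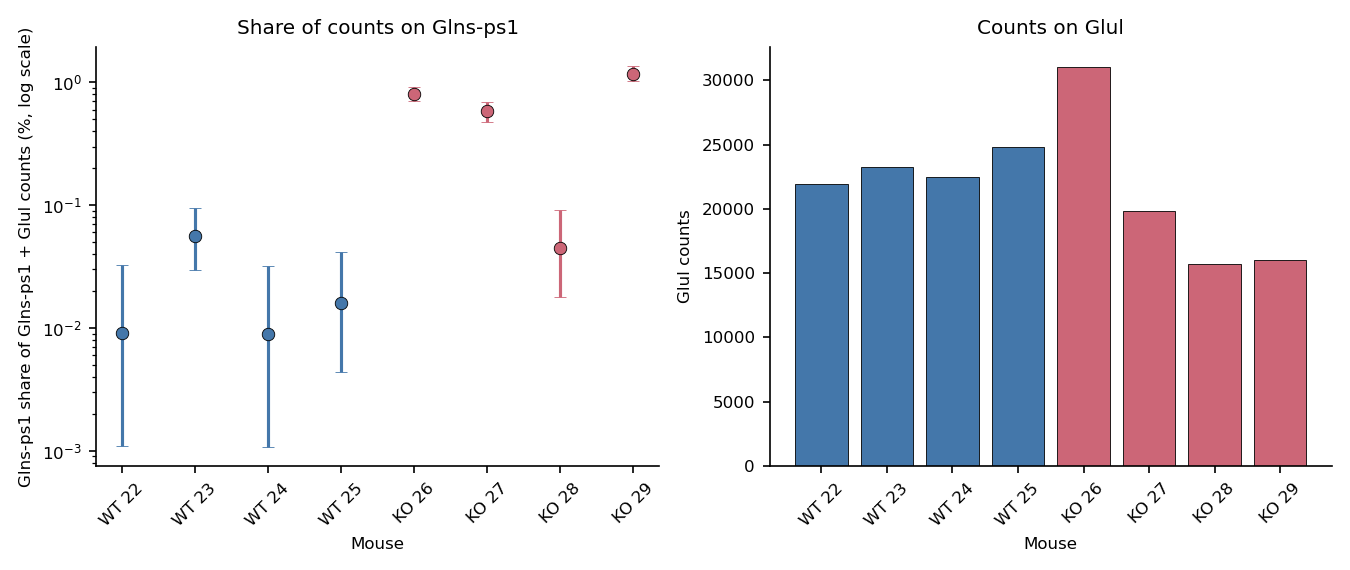
Glns-ps1 against Glul in each mouse. Left, the share of Glns-ps1 in the counts of both genes in percent on a log axis, with points for the mice and bars for exact 95% binomial intervals. Right, the counts on Glul, which were 15687 to 31042 in MøFoxO1-KO and 21946 to 24796 in WT mice. MøFoxO1-KO replicates 26, 27 and 29 have shares of 0.808%, 0.581% and 1.18%, and replicate 28 lies among the WT mice.

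The genes around Glns-ps1 did not show such a difference. Of 32 genes within 1000000 bases of it, 8 were tested, and their log2 fold changes lay between -0.33 and 0.04, with 0 past an adjusted P of 0.05 (edgeR, Benjamini-Hochberg) and 1, Aftph, with an unadjusted P under 0.05. These neighbors were looked up after the values of Glns-ps1 were seen.

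Oat encodes ornithine aminotransferase, a mitochondrial enzyme that turns ornithine into glutamate semialdehyde and is found with glutamine synthetase around the central vein. Oat (ENSMUSG00000030934, chromosome 7 from 132557475 to 132576398) had 9630, 15290, 9009 and 23284 normalized counts in WT and 13755, 16734, 5301 and 19071 in MøFoxO1-KO livers. The groups overlapped over most of their range, and the log2 fold change was -0.06 (SE 0.40). Mice of 1 group differed more than the genotypes, with coefficients of variation of 46.3% and 43.9%. Oat lies within the span of Fgfr2, without shared exon bases.

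Slc1a2 encodes a glutamate transporter of the plasma membrane that pericentral hepatocytes use for glutamate uptake. It was the only one of the 10 genes in which the groups did not overlap, and 9.71% of all tested genes likewise did not. Slc1a2 (ENSMUSG00000005089, chromosome 2 from 102658659 to 102790784) had 2507, 2395, 2175 and 4898 normalized counts in WT and 1495, 1332, 1746 and 1310 in MøFoxO1-KO livers. All 4 MøFoxO1-KO mice were below all 4 WT mice, the closest pair being WT replicate 24 and MøFoxO1-KO replicate 28. The WT mean was 2994 ± 1277 (SD, n = 4), the MøFoxO1-KO mean was 1471 ± 201.4 (SD, n = 4), and the log2 fold change was -1.02 (SE 0.25, 95% confidence interval -1.58 to -0.47). WT replicate 25 was far above the other WT mice, and leaving it out gave -0.68 on the log2 scale. Slc1a2 shares 189 exon bases with Gm13872 on the other strand, which had 0 to 3 counts.

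Rhbg encodes an ammonium transporter of the Rhesus family in pericentral hepatocytes and had low counts. Rhbg (ENSMUSG00000104445, chromosome 3 from 88242874 to 88254709) had 43.1, 95.4, 23.1 and 25.9 normalized counts in WT and 75.7, 75.2, 37.0 and 45.9 in MøFoxO1-KO livers. The values overlapped, WT replicate 23 was the highest of all 8 mice, and the log2 fold change was 0.32 (SE 0.46). Leaving out WT replicate 23 raised it to 0.93, and leaving out WT replicate 24 lowered it to 0.09. Of its 1937 exon bases, 1190 are shared with Gm38392 on the same strand, which had 0 counts in each mouse, so the count of Rhbg is uncertain where reads lie in the shared bases.

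The 3 genes that are parts or targets of the Wnt pathway, Lgr5, Axin2 and Tbx3, overlapped between the genotypes. Lgr5, a receptor for R-spondins and itself a Wnt target, lies on chromosome 10 from 115450311 to 115587780 (ENSMUSG00000020140). Lgr5 had 77.8, 109.2, 102.5 and 164.3 normalized counts in WT and 151.5, 121.8, 82.6 and 104.1 in MøFoxO1-KO livers, and the log2 fold change was 0.02 (SE 0.26). The WT mice spanned the whole range of the MøFoxO1-KO mice. Axin2, a scaffold of the β-catenin destruction complex that Wnt signaling induces as negative feedback, lies on chromosome 11 from 108920349 to 108950783 (ENSMUSG00000000142). Axin2 had 100.2, 190.8, 191.1 and 163.3 normalized counts in WT and 157.2, 146.9, 76.9 and 104.1 in MøFoxO1-KO livers. Of the WT mice, 3 were above all MøFoxO1-KO mice and replicate 22 was among the lowest, and the log2 fold change was -0.41 (SE 0.27, 95% confidence interval -1.02 to 0.19). Axin2 shares 209 exon bases with Gm11670 on the other strand, which had 0 to 2 counts. Tbx3, a transcription factor and β-catenin target in hepatocytes, lies on chromosome 5 from 119670669 to 119684724 (ENSMUSG00000018604). Tbx3 had 623.9, 788.6, 724.5 and 823.3 normalized counts in WT and 947.0, 715.4, 579.9 and 566.5 in MøFoxO1-KO livers. MøFoxO1-KO replicate 26 was the highest and replicates 28 and 29 the lowest of all 8, with a log2 fold change of -0.08 (SE 0.17). Tbx3 shares 115 exon bases with the antisense gene Tbx3os1, which had 102 to 475 counts, and the strand setting of the counting is not given in the sources used here.

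Cyp1a2 and Rgn were higher on average in MøFoxO1-KO livers, with overlap between the groups. Cyp1a2, a pericentral cytochrome P450 that is also induced through the aryl hydrocarbon receptor (AhR), lies on chromosome 9 from 57676937 to 57683655 (ENSMUSG00000032310). Cyp1a2 had 14009, 6072, 9214 and 12681 normalized counts in WT and 17605, 18344, 13469 and 14705 in MøFoxO1-KO livers, so that 3 of the 4 MøFoxO1-KO mice exceeded all WT mice. The log2 fold change was 0.61 (SE 0.24, 95% confidence interval 0.07 to 1.15). Rgn lies on chromosome X from 20549787 to 20562089 (ENSMUSG00000023070) and had 20162, 19199, 12656 and 22415 normalized counts in WT and 26175, 22275, 31675 and 22865 in MøFoxO1-KO livers. WT replicate 25 and MøFoxO1-KO replicate 27 overlapped by a small margin, and the log2 fold change was 0.47 (SE 0.20, 95% confidence interval 0.03 to 0.90).

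**Figure D3:**
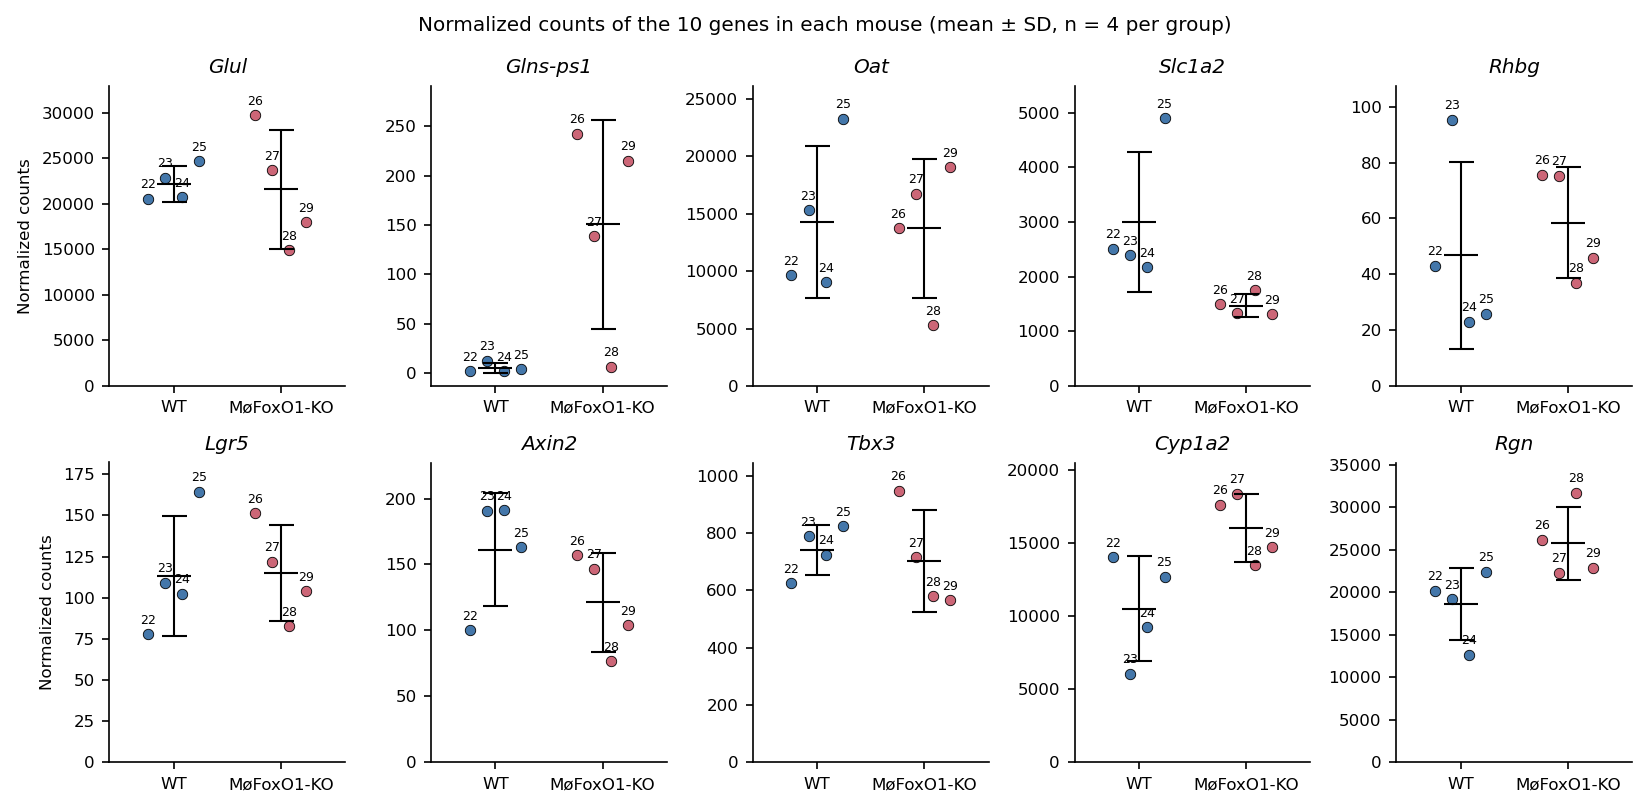
Normalized counts (y axes, each starting at or near 0) of the 10 genes in each mouse, by genotype. Points are mice with their replicate numbers, and the lines give mean ± SD (n = 4). Slc1a2 is the gene whose groups do not overlap, as for 9.71% of all tested genes. For Glns-ps1 the 3 MøFoxO1-KO replicates 26, 27 and 29 stand at 139 to 243 normalized counts.

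A gene counted as called when its adjusted P (edgeR, Benjamini-Hochberg) was under 0.05 and its log2 fold change beyond 1.5 in either direction. Of all 13278 tested genes 25 (0.188%) were called, and 0 of the 10 genes. At the adjusted P alone, 39 genes (0.294%) passed and again 0 of the 10. At an unadjusted P under 0.05 the counts were 2219 genes (16.7%) and 4 of the 10, with Glns-ps1, Cyp1a2 and Rgn higher (8.65% of all tested genes were higher) and Slc1a2 lower (8.06%). DESeq2's Wald test passed 583 of 14504 genes (4.02%) at its adjusted P, among them Glns-ps1 and Slc1a2, and called 177 (1.22%) with the limit on the fold change, among them Glns-ps1. With limma-voom 24 genes (0.181%) passed the adjusted P and 13 (0.0979%) were called, with 0 of the 10 in either count. Groups did not overlap for 9.71% of the tested genes (4.71% lower in MøFoxO1-KO livers) and for 1 of the 10, Slc1a2. Of the 10 genes 5 had a log2 fold change above 0 and 5 below, with a median of -0.01, and of all tested genes 6417 were higher and 6861 lower, also with a median of -0.01. Since the 10 genes were chosen with this contrast known, these shares are not read as evidence.

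Several of these genes ranked the mice of a genotype alike, which the choice of the genes by genotype did not use. MøFoxO1-KO replicate 28 was the lowest of its group in 7 of the 10 genes, Glul, Glns-ps1, Oat, Rhbg, Lgr5, Axin2 and Cyp1a2, and the highest in Slc1a2 and Rgn. MøFoxO1-KO replicate 26 was the highest of its group in 6, namely Glul, Glns-ps1, Rhbg, Lgr5, Axin2 and Tbx3. How often these mice were lowest or highest over all tested genes was not counted, so this is not read as a trait of the 10 genes. Replicate 28 also had the highest mitochondrial share of the 8 mice, 6.33%. To describe the order of the mice, the log2 CPM of each gene in each mouse (counts scaled to library size) were used. They were expressed as the deviation from the mean of the mouse's own genotype. These deviations were compared with those of Glul over the 8 mice. Tbx3 followed Glul most closely of the 9 other genes (Pearson's r = 0.91, Spearman's rho = 0.90, exact permutation within genotypes P = 0.0104 and 0.0139, adjusted over the 9 relations 0.0469 and 0.0625). Lgr5 came next (r = 0.80, rho = 0.86, exact permutation P = 0.00174, the smallest that the 576 arrangements allow, and 0.00347, adjusted 0.0156 and 0.0312). For Axin2 r was 0.76 and rho 0.83 (exact permutation P = 0.0486 and 0.0799, adjusted 0.146 and 0.240). Without MøFoxO1-KO replicates 26 and 28, the mice farthest from the median in Glul, r was 0.87 for Tbx3, 0.71 for Lgr5 and 0.53 for Axin2.

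The values of r of the other genes are given without a test of the difference from those above. Glns-ps1 had an r of 0.72 and a rho of 0.62 (exact permutation P = 0.142 and 0.181, adjusted 0.256 and 0.356) that rested on MøFoxO1-KO replicate 28, since r was 0.25 without it, 0.70 without replicate 26 and 0.06 without both. Without MøFoxO1-KO replicate 29 it was 0.93. Oat had an r of 0.59 and a rho of 0.40 (exact permutation P = 0.205 and 0.399, adjusted 0.307 and 0.513), and its r was 0.11 without MøFoxO1-KO replicate 28 and 0.82 without replicate 29. Rhbg had an r of 0.47 and a rho of 0.43 (exact permutation P = 0.139 and 0.198, adjusted 0.256 and 0.356). For Cyp1a2 (r = 0.29, rho = 0.31), Slc1a2 (r = 0.09, rho = 0.17) and Rgn (r = -0.08, rho = -0.31) the exact permutation P lay between 0.266 and 0.849, and the adjusted values between 0.341 and 0.849. Over all 13277 other tested genes, the median r to Glul was -0.01 and the 5th and 95th percentiles were -0.65 and 0.65, so 4 of the 9 genes lay above the 95th percentile. These relations were tested after the values were seen, and the deviations of all genes in a mouse share its library and its tissue sample. The 5 other genes with the highest r to Glul over the 8 mice were Stom (0.98), Alas2 (0.97), Ggact (0.97), Eif2b1 (0.96) and Pkp3 (0.96).

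**Figure D4:**
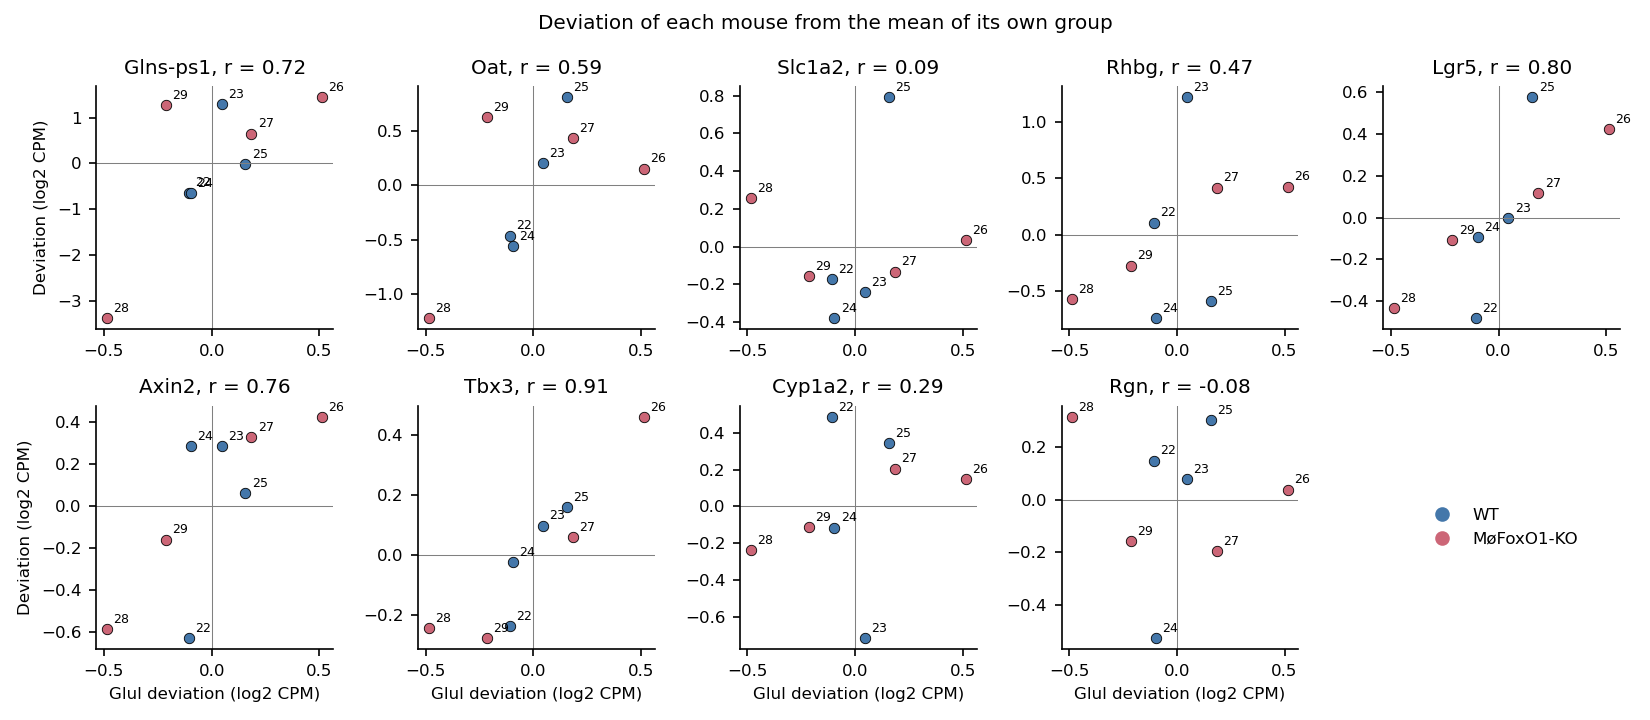
Deviation of each mouse from the mean of its own genotype in log2 CPM, for Glul (x axes) and each of the 9 other genes (y axes). Points are the 8 mice with their replicate numbers, in blue for WT and red for MøFoxO1-KO. The points of Tbx3 (r = 0.91) and Lgr5 (r = 0.80) lie along a rising line, and those of Slc1a2 (r = 0.09) and Rgn (r = -0.08) do not.

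Of 20 other pericentral genes, 9 had a log2 fold change above 0 and 11 below, and their median was -0.02. None passed an adjusted P of 0.05 in edgeR (Benjamini-Hochberg). At an unadjusted P under 0.05, 1 was higher and 6 were lower (8.65% and 8.06% of all tested genes). DESeq2 passed 3, Aldh3a2, Gstm1 and Gstm3, all lower. Cyp2e1, the ethanol-oxidizing P450 of the pericentral zone, averaged 200980 ± 36063 normalized counts in WT and 218180 ± 18258 in MøFoxO1-KO livers (SD, n = 4 each), a log2 fold change of 0.12 (SE 0.17). The extremes of the list were Cyp2c54, at 0.87 (SE 0.32), and Gstm3, a glutathione S-transferase, at -2.41 (SE 0.65). Normalized counts of Gstm3 were 789 to 4336 in WT and 164 to 756 in MøFoxO1-KO livers, so the groups were separate. This held for 9.71% of all tested genes, and the adjusted P of Gstm3 was 0.137 (edgeR, Benjamini-Hochberg). The summed level of the 20 genes was 12910 to 18300 RPKM in WT and 12630 to 17320 RPKM in MøFoxO1-KO livers.

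Among 16 genes of the opposite, periportal zone, 10 were higher and 6 lower (median 0.04, or 0.35 when WT replicate 23 and -0.07 when MøFoxO1-KO replicate 29 was left out), with 0 past the adjusted P in edgeR, DESeq2 or limma-voom, and 2 higher at an unadjusted P under 0.05. Those were Cyp2f2, a periportal P450, and Ctsc, the protease cathepsin C. Cyp2f2 had 5383 to 13793 normalized counts in WT and 10859 to 15111 in MøFoxO1-KO livers, a log2 fold change of 0.71 (SE 0.30). Ctsc had one of 0.82 (SE 0.29) that was 0.47 without MøFoxO1-KO replicate 29. That mouse had the highest sum of macrophage markers, 364 RPKM, and the part of macrophages in Ctsc was not tested. Aldh1b1, a mitochondrial aldehyde dehydrogenase, was lowest in the list at -0.99 (SE 0.68), where a single WT mouse reached 2799 normalized counts and the value without it, WT replicate 23, was 0.19. The genes of ureagenesis and gluconeogenesis in the list, Cps1, Otc, Ass1, Asl, Arg1, Pck1 and G6pc, had log2 fold changes from -0.09 to 0.23. The latter were named after their values were seen.

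The signals of the central vein were detected at low levels. Wnt2, a ligand of central vein and sinusoidal endothelium, averaged 37.1 ± 23.4 normalized counts in WT and 56.0 ± 21.6 in MøFoxO1-KO livers (SD, n = 4 each), a log2 fold change of 0.59 (SE 0.48). Wnt9b, the ligand most typical of the central vein, had 3 to 30 counts per mouse and a log2 fold change of -0.62 (SE 0.59). Rspo3, the R-spondin that amplifies Wnt signals there, had 126.6 ± 40.3 and 132.0 ± 24.1 (SD, n = 4 each), a log2 fold change of 0.06 (SE 0.24) that changed sign without WT replicate 23 (-0.10). All 3 overlapped between genotypes, and their 95% confidence intervals included 0. WT replicate 23 had the lowest sum of endothelial markers, 18.6 RPKM, and the fewest counts of Wnt2 (11) and Rspo3 (84) of all mice. The part of endothelial cells in these values was not tested. Of 25 Wnt ligands, R-spondins and genes for their secretion, 11 were tested, 4 higher and 7 lower. Their median of -0.15 was -0.36 without WT replicate 23, -0.30 without WT replicate 22 and -0.02 without WT replicate 25. Wnt5a was the lowest at -0.95 (SE 0.39), the only one at an unadjusted P under 0.05 (0 past the adjusted P by edgeR, DESeq2 or limma-voom). Wnt5a, a ligand that mostly acts without β-catenin, averaged 55.0 ± 18.8 normalized counts in WT and 28.2 ± 13.8 in MøFoxO1-KO livers (SD, n = 4 each).

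On the receiving side, 2 of 11 tested receptors were higher and 9 lower. Their median of -0.16 was -0.03 without WT replicate 23 and 0.02 with a surrogate variable. At an unadjusted P under 0.05, 2 were lower, Fzd1 and Lrp5, and DESeq2 passed Fzd1. Lgr4, the other R-spondin receptor of hepatocytes, was at 0.15 (SE 0.13), and Fzd4 was lowest at -0.74 (SE 0.45). Of 15 tested genes of signal transduction, 4 were higher and 11 lower, with a median of -0.21. At an unadjusted P under 0.05, 1 was higher and 5 were lower (8.65% and 8.06% of all tested genes). Ctnnb1, which encodes β-catenin, averaged 2251 ± 395 normalized counts in WT and 1756 ± 271 in MøFoxO1-KO livers (SD, n = 4 each), a log2 fold change of -0.36 (SE 0.16, edgeR, Benjamini-Hochberg adjusted P = 0.289). Gsk3b, a kinase that marks β-catenin for degradation, was at -0.63 (SE 0.19) with all MøFoxO1-KO mice below all WT mice, 328 to 451 against 489 to 869 normalized counts. Dvl1, which passes the signal on from the receptors, was at 0.42 (SE 0.16) with all MøFoxO1-KO mice above all WT mice. Of the 15 genes, groups did not overlap for 1 higher and 3 lower (Btrc and Bcl9l besides Gsk3b), against 9.71% of all tested genes. In neither list did a gene pass the adjusted P in edgeR or limma-voom, and DESeq2 passed 1 in each, Fzd1 and Bcl9l, both lower.

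Secreted and surface inhibitors were mostly too low to test. Of 12, 3 were tested, all lower, with a median of -0.34 and 0 past the adjusted P in edgeR (Benjamini-Hochberg). They were Dkk3 at -0.09 (SE 0.46), Frzb at -0.68 (SE 0.38) and Kremen1, which had an unadjusted P under 0.05. Wif1, a secreted Wnt-binding inhibitor, did not pass the filter in edgeR. Its raw counts were 2, 4, 1 and 1 in the WT mice, and 71, 46, 2 and 10 in the MøFoxO1-KO mice. As for Glns-ps1, MøFoxO1-KO replicate 28 was the lowest of its group, here with 2 counts, within the range of the WT mice. DESeq2, which keeps such genes, gave Wif1 a log2 fold change of 4.15 (SE 0.97, Benjamini-Hochberg adjusted P = 0.00191), and edgeR without a filter one of 4.04 (Benjamini-Hochberg adjusted P = 0.0381). Wif1 was singled out after its values were seen, and its counts in 6 of the 8 mice were 10 or fewer.

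Of 12 further Wnt targets, 9 were tested, 3 higher and 6 lower, with a median of -0.15, and none passed the adjusted P in edgeR, DESeq2 or limma-voom. Notum, a secreted Wnt deacylase that pericentral hepatocytes express as feedback, was highest at 0.30 (SE 0.20), with 361 to 756 normalized counts in WT and 686 to 837 in MøFoxO1-KO livers. Myc, a growth regulator and target of many pathways, was lowest at -0.93 (SE 0.37) and the only one at an unadjusted P under 0.05. The feedback genes Rnf43, Znrf3, Nkd1 and Sp5, named after their values were seen, lay between -0.19 and 0.30.

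Of 17 tested genes of glutamine, glutamate and ornithine metabolism beside the 10 genes, 6 were higher and 11 lower, with a median of -0.03 and 0 past the adjusted P in edgeR (Benjamini-Hochberg) or limma-voom. At an unadjusted P under 0.05, Slc38a3, a glutamine transporter, was higher and Gpt2, the mitochondrial alanine aminotransferase, was lower. Gpt2 had 5729 to 15496 normalized counts in WT and 2439 to 5608 in MøFoxO1-KO livers, a log2 fold change of -1.13 (SE 0.38) that was -0.67 without WT replicate 23, and DESeq2 passed it (Benjamini-Hochberg adjusted P = 0.0408). Got1, the cytosolic aspartate aminotransferase, was highest at 0.52 (SE 0.46), and without MøFoxO1-KO replicate 29 it was -0.10. Glud1, the mitochondrial glutamate dehydrogenase, named after its value was seen, was at -0.11.

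Because Cyp1a2 also responds to AhR, targets of that receptor were set beside it. Of 5 tested, 2 were higher and 3 lower, with a median of -0.60 that was -0.26 without MøFoxO1-KO replicate 29 and -0.36 without WT replicate 22. Of these genes edgeR passed 0 at the adjusted P and 1, Nqo1, at an unadjusted P under 0.05. Cyp1a1, the gene most tightly tied to AhR, was at -0.60 (SE 0.53), and Ugt1a6a was highest at 0.40 (SE 0.28). The median of the 5 is thus the value of Cyp1a1, which had only 2 to 29 counts per mouse. Cyp1b1, also lower, had 6 to 38. Nqo1, a quinone reductase also under Nrf2, was lowest at -1.22 (SE 0.21), with 163 to 252 normalized counts in WT and 66.9 to 117.5 in MøFoxO1-KO livers and separate groups. Its adjusted P was 0.052 in edgeR's test and 7.8e-05 in DESeq2's (both Benjamini-Hochberg), so passing 0.05 depended on the test.

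**Figure D5:**
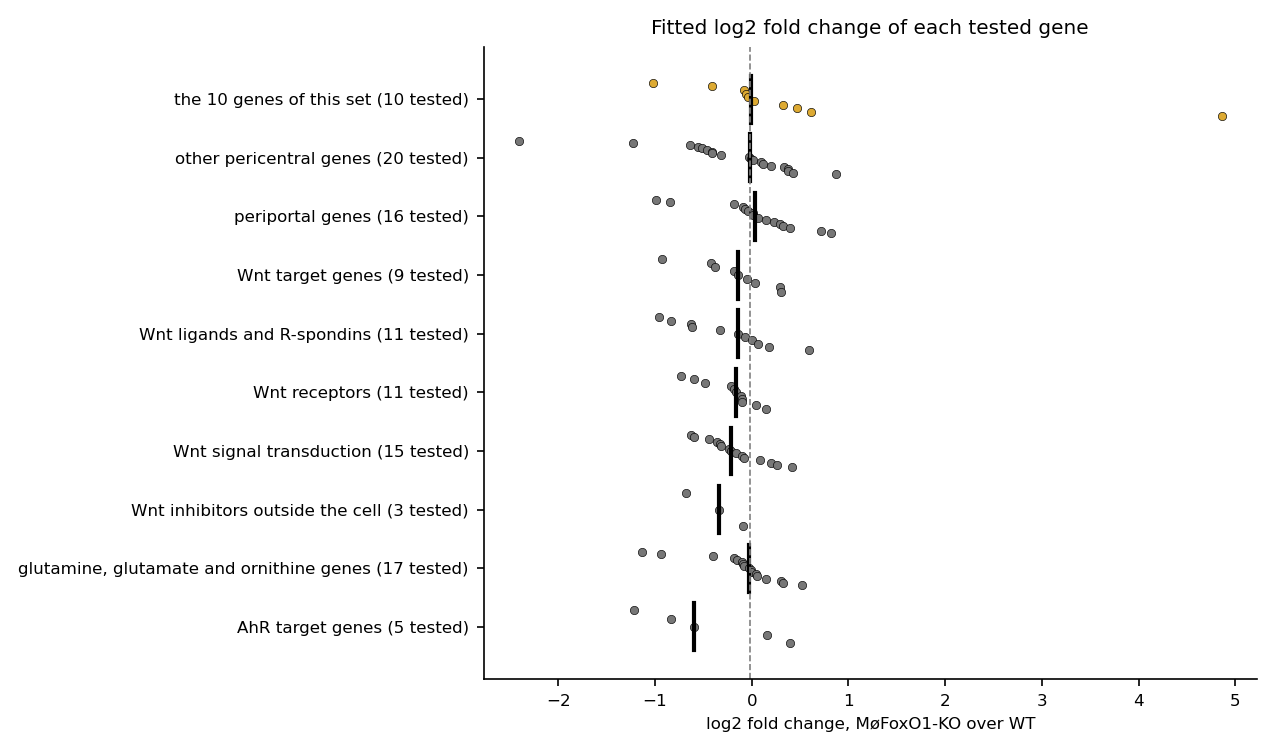
Fitted log2 fold changes (x axis, MøFoxO1-KO over WT, edgeR) of each tested gene of the 10 genes and of 9 other lists. Points are genes, black bars are medians of the lists and the dashed line is the median of all tested genes. Medians lie between -0.60 for the 5 AhR targets and 0.04 for the periportal genes, and Glns-ps1 at 4.86 stands apart to the right. The median of the AhR targets is the value of Cyp1a1, which had 2 to 29 counts per mouse.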

How the data were processed

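Polyadenylated RNA of 8 livers was sequenced, and the authors deposited 1 table of raw read counts per gene, without normalization, for 46517 Ensembl genes. Per the submitters' processing notes, STAR, featureCounts and mm10 were used, without versions. The deposited table has the layout of featureCounts, with exon positions on GRCm38 and the summed exon length in bases as another column, which was used for RPKM. Strand setting, read length and the handling of multi-mapping reads are not given in the sources used here. Each column of counts belongs to 1 mouse, and genotypes came from the labels.

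Symbols were taken from GENCODE M21 for 46005 of the 46517 genes. Genes were filtered with filterByExpr (minimum count 10, minimum total 15), scaled by TMM and tested with edgeR 4.0.16 (R 4.3.3, quasi-likelihood fit, genotype as the sole term), and P values of all 13278 tested genes were adjusted by Benjamini-Hochberg. Calls required an adjusted P under 0.05 with a log2 fold change beyond 1.5 in either direction, the limits of the study. At these limits the paper reported more genes than edgeR called here, and the number called here depended on the test. The alternatives were DESeq2 1.42.0, its size factors, upper-quartile scaling, limma-voom (limma 3.58.1), no filter, a filter of 10 counts in every mouse, the robust fit, 1 surrogate variable from sva 3.50.0, mitochondrial genes left out, Glul and Glns-ps1 summed, and leaving out each mouse in turn. Leaving out WT replicate 25 and MøFoxO1-KO replicate 28 together, the permutation tests of r (two-sided, within genotypes) and the neighbors of Glns-ps1 were added after the data were seen. Deviations used log2 CPM with a prior count of 2, or 0.5 as an alternative. In simulated counts, 200 of 13278 genes were changed. Of these edgeR called 193 with 5 false calls, DESeq2 193 with 10 and limma-voom 193 with 2. The changed genes were drawn from those above a floor on the mean count, with changes larger than the limit on the fold change. Recovery of smaller changes, or of changes in genes with few counts, was not simulated.

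The 10 genes and the other lists were chosen with earlier results of these data known. Named are the 10 genes, genes overlapping their exons, the 5 genes closest to Glul, and of each list the genes past the adjusted P or else those with the highest and lowest log2 fold change, with Rspo3, Wnt2, Wnt9b, Cyp2e1, Cyp2f2 and Ctnnb1 in any case. Other genes were named after their values were seen. Of the 8 hepatocyte markers listed, 7 were found by symbol. Sequences were aligned with Biopython 1.88, and tables were handled with pandas 2.3.3, numpy 2.4.6 and scipy 1.17.1 in Python 3.11.15.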

Additional observations from a re-analysis of the deposited data

Results flagged for a closer look

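In 5 of 66 groups of 4 mice that were checked, 1 mouse stood apart from the other 3 by Dixon's ratio of gap to range, where chance alone would flag about 5% of groups. Slc1a2 in WT replicate 25 had 4900 normalized counts, with a ratio of 0.878. Wnt5a in MøFoxO1-KO replicate 26 had 48.9 normalized counts (ratio 0.915). WT replicate 23 stood apart in 3 genes, with 869 normalized counts of Gsk3b (ratio 0.852), 15500 of Gpt2 (ratio 0.905) and 13800 of Cyp2f2 (ratio 0.951). Without that mouse, the log2 fold change of Gsk3b was -0.40, that of Gpt2 -0.67 and that of Cyp2f2 1.17, and without MøFoxO1-KO replicate 26 that of Wnt5a was -1.37.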

How the results depend on the processing

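The 25 called genes became 177 with DESeq2, 120 without a filter, 13 with limma-voom, 47 without WT replicate 25 and MøFoxO1-KO replicate 28, and 3 (without WT replicate 25) to 79 (without MøFoxO1-KO replicate 28) when 1 mouse was left out. Leaving out WT replicate 22, or MøFoxO1-KO replicate 26, 27 or 29, gave 13, 9, 7 and 13. At the adjusted P alone, the 39 genes became 583, 205, 24 and 69 in the same order, and 3 to 126 when 1 mouse was left out (14, 10, 7 and 14 without those 4 mice). Counts past the adjusted P in the lists, 0 in each, became 3 with DESeq2 and 1 without a filter for other pericentral genes, 1 with DESeq2 for receptors, signal transduction and glutamine genes each, 1 with DESeq2 and without a filter for inhibitors, and 1 with DESeq2, without a filter and in the robust fit for AhR targets. For periportal genes that count was 0 to 1 when 1 mouse was left out, with 1 without WT replicate 23.

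Directions turned for Aldh1b1 (0.67 with a surrogate variable, and 0.19 without WT replicate 23 in a range of -1.33 to 0.19 over fits without 1 mouse), Fzd4 (0.017 with a surrogate variable), Dkk3 (0.10, 0.01, 0.08 and 0.03 without WT replicate 22 or 24 or MøFoxO1-KO replicate 26 or 29, -0.43 without MøFoxO1-KO replicate 27 and -0.62 with a surrogate variable), Got1 (-0.10 without MøFoxO1-KO replicate 29, highest 1.082 without WT replicate 25 and MøFoxO1-KO replicate 28) and Rspo3 (-0.17 with a surrogate variable, -0.10 without WT replicate 23, -0.03 without MøFoxO1-KO replicate 28, highest 0.27 without WT replicate 25). List medians ranged over all alternatives from -0.07 to 0.41 (with a surrogate variable) for periportal genes, -0.85 (limma-voom) to 0.16 (at least 10 counts in every mouse) for AhR targets, -0.53 (with a surrogate variable) to 0.01 (at least 10 counts in every mouse) for ligands, -0.23 to 0.02 (with a surrogate variable) for receptors, -0.20 to 0.08 for other pericentral genes, -0.08 to 0.13 for glutamine genes, -0.26 to -0.08 for Wnt targets, -0.26 to -0.17 for signal transduction and -0.62 to -0.30 for inhibitors. With at least 10 counts in every mouse, some lists lost genes, so those medians cover fewer genes. Cyp1a1 and Cyp1b1 dropped out of the AhR targets, and Rspo1, Wnt2b, Wnt9a and Wnt9b out of the ligands. The cause of the other shifts was not tested.

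For Glns-ps1, the log2 fold change lay between 4.26 and 5.82 over 17 alternatives, 4 of which called it (DESeq2, no filter, without MøFoxO1-KO replicate 28, and without that mouse and WT replicate 25). It gave no value with at least 10 counts in every mouse. Slc1a2 lay between -1.15 and -0.68 and Rhbg between 0.09 and 1.12 (with a surrogate variable). Glul lay between -0.24 and 0.16 with a change of sign in 5 of 19 alternatives, and it was -0.03 when summed with Glns-ps1. Signs also changed in 3 of 18 alternatives each for Oat and Lgr5 and in 4 of 18 for Tbx3. No paired analysis was possible because the genotypes share no replicate numbers in the labels.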
